A study of Mus musculus with 6 samples.

Results

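Every cytosolic ribosome is built from ribosomal RNA and a fixed set of ribosomal proteins, and the genes of those proteins are described here across cultured fetal kidney stroma on substrates of high and low adhesion. Members were taken by name from the protein-coding rows of the deposited table: names that begin with Rpl or Rps and a number, the 3 acidic stalk genes Rplp0, Rplp1 and Rplp2, and Rpsa. Ribosomal S6 kinase genes and names of pseudogenes were left out. The rule found 90 of 78409 genes, 54 with large subunit names and 36 with small subunit names. Of these, 85 had enough counts to be tested (50 large, 35 small) and 5 did not. Rps19bp1, which encodes a regulator of the deacetylase SIRT1 that binds RPS19, Rpl7l1, an assembly factor related to Rpl7, and Rps23rg1, a retroposed gene, match by name but are not known as core subunits. Fau, which encodes a ribosomal protein fused to a ubiquitin-like protein, and Rack1, a scaffold on the small subunit, are ribosomal but fall outside the name rule.

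Nephrogenic stroma is the connective tissue that surrounds forming nephrons. It was obtained by sorting PDGFRa-positive cells of the nephrogenic zone of embryonic day 18 kidneys (CD1 mice, wild-type, pooled), and its polyadenylated RNA was sequenced once the cells had been cultured for 18 h in medium with serum. The high adhesion group (3 libraries) grew on coverslips coated with the silicone PDMS and incubated in 50000 ng/mL bovine fibronectin, and the low adhesion group (3 libraries) on the same surface incubated in 500 ng/mL. Each of 3 litters gave 1 library per substrate, so the libraries pair by litter, and a replicate is a pool of kidneys of 1 litter. All cells had been through enzyme digestion, sorting and culture, so neither group stands for stroma in the kidney. In bulk RNA, fewer cells of a type and less RNA per cell cannot be told apart.

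Ribosomal protein mRNAs are among the most abundant of any growing cell. Their transcripts begin with a tract of C and T known as the 5′ terminal oligopyrimidine (TOP) motif, through which the kinase mTORC1 sets how well they are translated. Control is therefore known to act largely on translation, which polyadenylated RNA does not measure. Cells keep the subunit proteins in near equal amounts, and free RPL5 and RPL11 are known to bind the p53 inhibitor MDM2.

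The sequence around the annotated start is shown here for genes whose values are given below, some with and some without a long run of C and T. RefSeq promoter entries of build GRCm38.p6 matched 67 of the 90 genes by symbol, 57 of them with 1 start. Each line runs from 10 bases before the start to 20 after it, and capitals mark the longest run of C and T in those 30 bases.
Rps6, chr4:86857348-86857377, minus strand: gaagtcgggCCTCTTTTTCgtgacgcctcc
Rps12, chr10:23787190-23787219, minus strand: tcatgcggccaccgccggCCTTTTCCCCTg
Rps27, chr3:90213629-90213658, minus strand: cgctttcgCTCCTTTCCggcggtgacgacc
Rpl13a, chr7:45128726-45128755, minus strand: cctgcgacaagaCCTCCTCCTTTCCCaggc
Rpl15, chr14:18270967-18270996, minus strand: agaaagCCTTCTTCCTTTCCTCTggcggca
Rpl22l1, chr3:28805498-28805527, plus strand: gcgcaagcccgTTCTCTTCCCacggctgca
Rpl36a, chrX:134585644-134585673, plus strand: cccaggcaccgcctataaaCTTCCgttgcg
Rpl26, chr11:68901556-68901585, plus strand: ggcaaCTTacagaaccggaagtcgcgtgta
Rps27 and Rpl22l1 carried runs of 9 and 10 bases, Rpl15 one of 17, and Rpl36a and Rpl26 runs of 5 and 3. A run of at least 8 bases of C or T stood in this window, for at least 1 start, in 25 of the 67 matched genes (37.3%), against 3517 of 27025 genes with a RefSeq promoter (13.0%). The same run read on the other strand, at least 8 bases of A or G, stood in 3 of 67 (4.48%) and in 15.4% of all genes. The start used in these cells may differ from the annotated one, so a missing run says only that the letters are not in this window. The 24 tested genes with such a run had a median log2 fold change of -0.04 for high over low adhesion (22 below 0), and the 39 tested genes without it one of -0.03 (37 below 0).

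Ribosomal protein genes held a large part of every library. Their share of all counts was 11.7%, 11.5% and 11.8% in the high adhesion libraries of litters 1, 2 and 3, against 12.2%, 11.6% and 12.1% in the low adhesion libraries of the same litters. High minus low adhesion was -0.495, -0.115 and -0.278 percentage points in litters 1, 2 and 3, a mean difference of -0.296 with an SD of 0.191 (n = 3 litters), but the 2 groups overlapped. An exact two-sided permutation test over 3 pairs cannot go below p = 0.25, so none is given. Without litter 1 the mean difference was -0.197 percentage points.

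**Figure D1:**
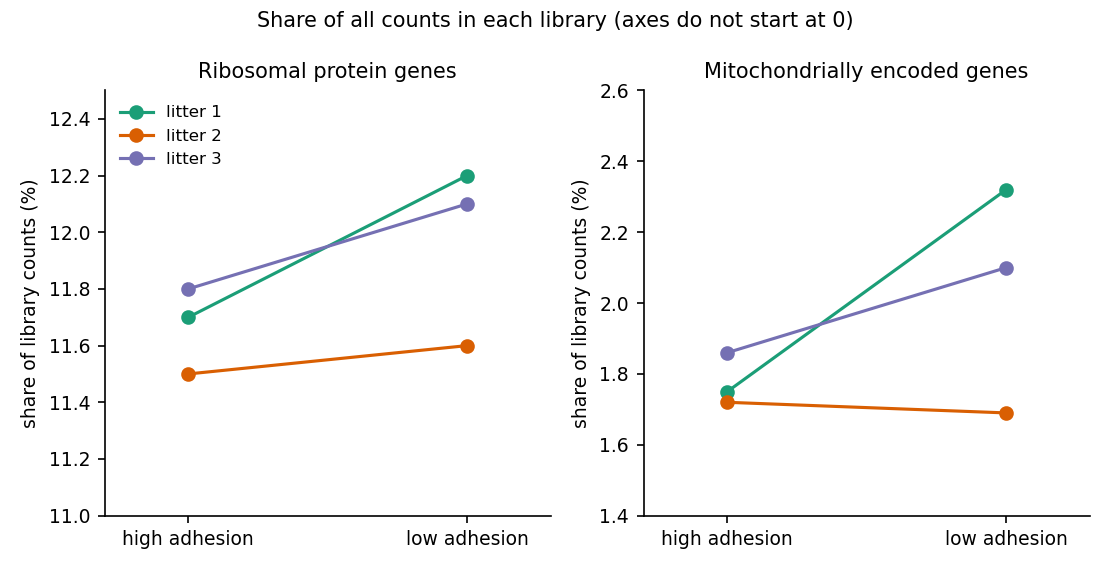
Each line joins the 2 libraries of 1 litter, with the share of library counts (%) on the vertical axis for the ribosomal protein genes (left) and for mitochondrially encoded genes (right). The ribosomal protein share is lower at high adhesion in all 3 litters, with differences of -0.495, -0.115 and -0.278 percentage points, and the mitochondrial share is lower in litters 1 and 3.

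The share of mitochondrially encoded genes was 1.75%, 1.72% and 1.86% at high adhesion and 2.32%, 1.69% and 2.1% at low adhesion in the same order of litters. It was lower at high adhesion in litters 1 and 3 and not in litter 2, where the ribosomal protein difference was smallest, and its part in that difference was not tested. Total counts ran from 12596249 to 13508257 per library.

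Levels of single genes were close between the substrates. Values are CPM, in which counts are set relative to the total of their library with sizes scaled by TMM, and each fold change is high over low adhesion from edgeR's quasi-likelihood model with litter as a block. No ribosomal protein gene passed an adjusted p of 0.05 in either direction, whereas 9.55% of the 14834 tested genes did (4.71% higher, 4.83% lower). Of the 85 genes, 10 had an unadjusted edgeR p under 0.05, all lower at high adhesion (11.8%), against 21.9% of all tested genes in either direction and 10.7% lower. DESeq2 with the block called 0 of the 85 as well (2.74% of all tested genes), with 6 at an unadjusted p under 0.05 (8.61% of all tested genes). Without the litter block edgeR called 0 of the 85 (0.243% of all tested genes). With limma-voom 3 genes passed as lower, among them Rpl36a and Rps27 (3.53% of the 85, against 4.81% of all tested genes).

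Rpl36a, which encodes a large subunit protein near the exit site for tRNA, stood at 884, 910.3 and 909 CPM at high adhesion in litters 1, 2 and 3, against 972, 934 and 1003 CPM at low adhesion. All 3 high adhesion libraries lay below all 3 low adhesion libraries, and the log2 fold change was -0.11 ± 0.04 (standard error, edgeR adjusted p = 0.0780). Rpl22, a large subunit protein that mice can lack, stood at 848, 919 and 876 CPM at high adhesion, against 969, 912 and 975 CPM at low adhesion. Its high adhesion library of litter 2 lay above its low adhesion partner, so the groups overlapped (log2 fold change -0.11 ± 0.04, edgeR adjusted p = 0.0840).

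Of the genes printed above with a C and T run of 11 to 17 bases, 2 stood near the low end of the ranking and 1 did not. Rpl13a, of the large subunit, had 1193, 1204 and 1214 CPM at high adhesion, against 1327, 1225 and 1313 CPM at low adhesion (log2 fold change -0.10 ± 0.04, edgeR adjusted p = 0.108). Rps12, of the small subunit, had 2491, 2660.3 and 2501 CPM at high adhesion, against 2729, 2665 and 2692 CPM at low adhesion (log2 fold change -0.08 ± 0.04, edgeR adjusted p = 0.179). Neither gene's groups overlapped. Rpl15, with a run of 17 bases, had 698, 726 and 688 CPM at high adhesion and 732, 678 and 692 CPM at low adhesion, with overlap (log2 fold change 0.01 ± 0.04, edgeR adjusted p = 0.951).

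At the other end of the ranking stood Rpl29, Rpl18 and Rpl7l1. Rpl29, a large subunit protein also described as binding heparin, had 25.6, 20.7 and 23.2 CPM at high adhesion, against 23.1, 23.7 and 20.1 CPM at low adhesion. The groups overlapped, with a log2 fold change of 0.06 ± 0.08 (edgeR adjusted p = 0.770). Rpl18 had 1167, 1179.9 and 1219.9 CPM at high adhesion and 1209, 1109.6 and 1186 CPM at low adhesion, a log2 fold change of 0.03 ± 0.04 (edgeR adjusted p = 0.771). For Rpl7l1 the log2 fold change was 0.02 ± 0.04, with 152 ± 13.4 CPM at high and 149 ± 7.45 CPM at low adhesion (SD, n = 3 each, edgeR adjusted p = 0.835).

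**Figure D2:**
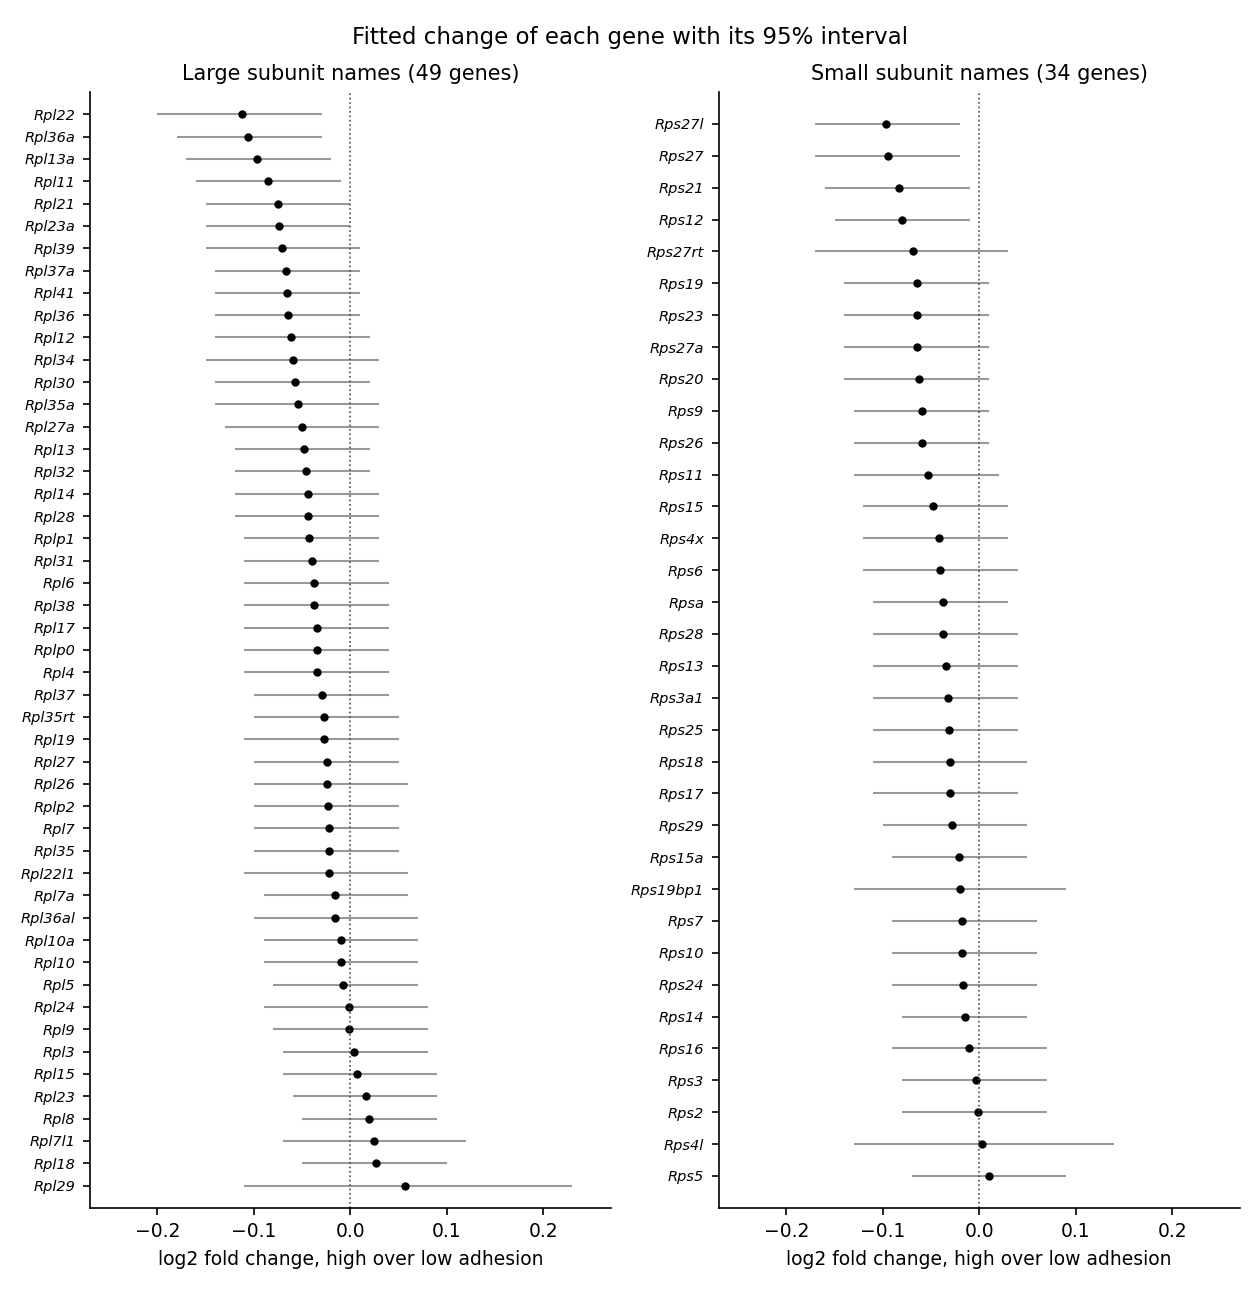
Fitted log2 fold change (high over low adhesion, horizontal axis) of 83 of the 85 tested genes with its 95% interval, for 49 large subunit names (left) and 34 small subunit names (right), ordered from lowest at the top. Points run from -0.11 for Rpl22 to 0.06 for Rpl29, and every interval lies within 0.25 of 0.

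Within edgeR's model the measurements were tight enough to bound the difference of each gene. The intervals used a median of 25.6 degrees of freedom, against 2 residual degrees of freedom per gene. Most were thus borrowed across genes, and the intervals hold gene by gene, not for all 85 together. The 95% intervals of all 85 genes lay within 0.25 of 0 on the log2 scale, which is between -15.9% and 18.9%, and those of 73 lay within 0.15 of 0. The lowest bound was -12.7% (Rpl22) and the highest 16.9% (Rpl29, the tested gene with the fewest counts). These limits rest in part on litter 2: without it the interval of Rpl22 reached down to -16.1% and that of Rpl29 up to 28.1%, and 83 of 85 intervals lay within 0.25 of 0. Fold changes had a median of -0.035 (-2.38%) and an SD of 0.033, against a median of -0.001 and an SD of 0.238 over all tested genes. The median standard error was 0.04 for the family and 0.09 for all genes. Among the 470 other genes of at least 300 CPM, whose median standard error was also 0.04, the median absolute log2 fold change was 0.06 and 92 passed the test (19.6%). The 79 family genes of that level had a median absolute log2 fold change of 0.04.

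**Figure D3:**
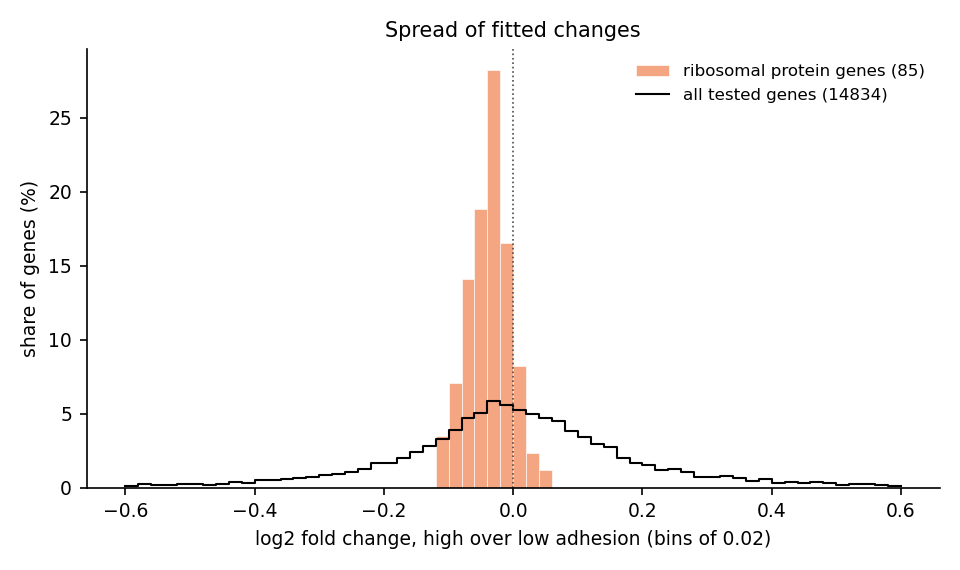
Share of genes (%, vertical axis) by fitted log2 fold change (high over low adhesion) in bins of 0.02, as filled bars for the 85 ribosomal protein genes and as a line for all 14834 tested genes. The ribosomal protein genes have an SD of 0.033 around a median of -0.035, and all genes one of 0.238 around -0.001, with 490 tested genes beyond the plotted range.

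The small differences leaned one way. Of the 85 fitted changes, 75 were below 0 (88.2%, against 50.4% of all tested genes), 42 of 50 in the large and 33 of 35 in the small subunit. In 34 genes high adhesion was lower in 3 of 3 litters (40.0%, against 20.4% of all tested genes), and in 0 it was higher in 3 of 3. All 3 high adhesion libraries lay below all 3 low adhesion libraries in 15 genes (17.6%, against 7.67% of all tested genes), among them Rpl36a, Rpl11, Rps19, Rps27 and Rps27l, and in 0 genes the reverse. These counts are over genes measured in the same 6 libraries, so they are not 85 independent observations and carry no test. The median was -0.034 with the RLE scaling and -0.035 with TMM factors computed without the family.

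Litters differed in how far the family leaned. The median log2 ratio of high to low adhesion (CPM plus 0.5) was -0.08 in litter 1, -0.01 in litter 2 and -0.04 in litter 3, with 80, 48 and 66 of 85 genes below 0. Over all tested genes each of these medians rounded to 0.00. Without litter 2, 9 genes passed as lower and 0 as higher (10.6% of the 85, against 5.43% of all tested genes lower), among them Rpl22, Rpl36a, Rps27l, Rpl13a, Rpl34, Rps12, Rpl11 and Rps21. With litter 1 or litter 3 left out, 0 passed. The median fold change was -0.016 without litter 1 and -0.053 without litter 2.

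**Figure D4:**
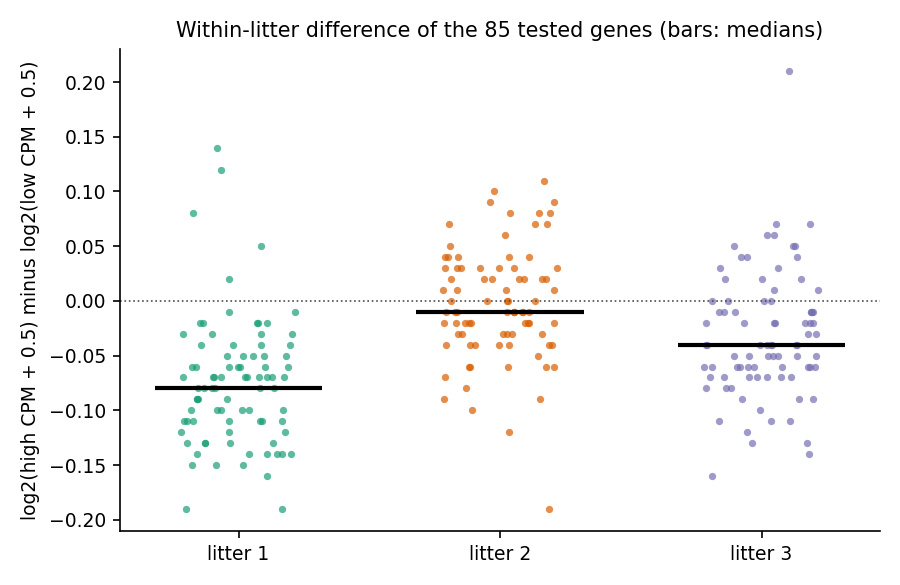
Log2 ratio of high to low adhesion CPM, each with 0.5 added, for the 85 tested genes within litters 1, 2 and 3, with the median as a bar. Medians are -0.08, -0.01 and -0.04, and 80, 48 and 66 of the points lie below 0.

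Genes with known tasks beside the subunit showed the same narrow range. Rplp0, Rplp1 and Rplp2, the stalk proteins that recruit elongation factors, had log2 fold changes of -0.04 ± 0.03, -0.04 ± 0.03 and -0.02 ± 0.04 (edgeR adjusted p = 0.632, 0.535 and 0.788). Rps6, the substrate of the S6 kinases, stood at 647, 677 and 678 CPM at high adhesion and 693, 662 and 705 CPM at low adhesion, with overlap between the groups (log2 fold change -0.04 ± 0.04, edgeR adjusted p = 0.608). Rpsa, also known as the non-integrin laminin receptor, stood at 1689, 1643 and 1655 CPM at high adhesion and 1728, 1711 and 1681 CPM at low adhesion. It was lower at high adhesion in 3 of 3 litters but the groups overlapped (log2 fold change -0.04 ± 0.04, edgeR adjusted p = 0.598). Rps27a, made as a fusion with ubiquitin, averaged 1526 ± 29.1 CPM at high and 1596 ± 66.5 CPM at low adhesion (SD, n = 3 each, edgeR adjusted p = 0.322).

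Rpl5 and Rpl11, whose proteins join the 5S ribosomal RNA and can bind MDM2, differed in where they stood in the family. Rpl11 had 1802, 1845 and 1803 CPM at high adhesion, against 1958, 1873 and 1951 CPM at low adhesion, without overlap (log2 fold change -0.09 ± 0.04, edgeR adjusted p = 0.150). Rpl5 had 1748, 1818 and 1722 CPM at high adhesion and 1764, 1744 and 1808 CPM at low adhesion, with overlap (log2 fold change -0.01 ± 0.04, edgeR adjusted p = 0.939). The difference between these genes was not tested. Rps19, the gene most often mutated in human Diamond-Blackfan anaemia, had 1511, 1566 and 1549.6 CPM at high adhesion, against 1634, 1578 and 1625 CPM at low adhesion. Its groups did not overlap, and the log2 fold change was -0.06 ± 0.04 (edgeR adjusted p = 0.321). The 5 genes that took most counts were Rps14, Rplp1, Rps15a, Rplp2 and Rpl32, from 4345 ± 68.6 CPM at high and 4392 ± 209 CPM at low adhesion for Rps14 to 2904 ± 79.8 CPM at high and 2999 ± 145 CPM at low adhesion for Rpl32 (SD, n = 3 each). Log2 fold changes of these 5 ran from -0.05 to -0.01.

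Several subunits have a second gene, and its share of the pair is given here per kb of coding sequence. Rpl22l1 made up 29.7 ± 1.18% of the pair with Rpl22 at high adhesion and 28.4 ± 0.520% at low adhesion (SD, n = 3 each). By litter this was 30.0%, 28.4% and 30.7% at high adhesion and 28.7%, 28.7% and 27.8% at low adhesion, higher at high adhesion in litters 1 and 3. Rpl36al made up 19.3%, 19.3% and 19.6% of the pair with Rpl36a at high adhesion, and 18.9%, 18.6% and 17.7% at low adhesion, without overlap. Near-identical copies, described below, held a mean of 50.3% of the counts of Rpl36al and its copies. For Rpl36a they held 18.2%, so the level of this share is uncertain. Rps27l, a target of p53 in human cells, made up 41.3 ± 0.693% of its pair with Rps27 at high and 41.3 ± 0.850% at low adhesion. Its log2 fold change was -0.10 ± 0.04 (edgeR adjusted p = 0.112), beside -0.10 ± 0.04 for Rps27 (edgeR adjusted p = 0.101). Rpl7l1 held 8.09 ± 0.678% at high and 7.85 ± 0.341% at low adhesion beside Rpl7. No test was made on these shares.

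The paralogues that are known from other tissues had hardly any counts. Rpl3l, of striated muscle, had 4.5, 1.5 and 1.5 counts at high adhesion and 3, 2 and 3 counts at low adhesion, beside 11096 to 12214 counts of Rpl3 in the same libraries. Rpl10l and Rpl39l, of male germ cells, had 0 or 1 count in each library. Rps23rg1 had between 4.17 and 6.42 counts. Together with Rpl27rt, these are the 5 genes below the filter, and they enter no test or median. Despite its name, Rpl27rt has a coding sequence 97.9% identical to that of Rpl29 (10 mismatches in 480 bases).

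Reads of this family are shared with many copies, which bears on most values above. Counts were fractional in 6 of 6 libraries for 63 of the 90 genes and in at least 1 library for 87. Rpl10l, Rpl39l and Rps19bp1 had whole counts throughout. The coding sequence of 89 of the genes could be searched against GENCODE M21 transcripts, and 78 had at least 1 row outside the family with at least 95% identity over at least 80% of it, 579 rows in all. These copies, mostly processed pseudogenes, held 2.98%, 2.86% and 3.00% of the counts at high adhesion and 3.12%, 2.88% and 3.06% at low adhesion. For 6 tested genes (Rpl29, Rpl26, Rpl24, Rpl34, Rps10 and Rpl36al) the copies held on average over the 6 libraries more than 50% of the counts of gene and copies together, although single libraries of Rpl26 and Rpl36al lay just below that, at 49.1% for Rpl26 and 49.9% for Rpl36al in the lowest low adhesion library. Rpl29 is the extreme, with 26 copies that held between 92.5% and 93.3% at high adhesion and between 92.3% and 93.6% at low adhesion. Within the family, Rps27 and Rps27rt have the same coding sequence, Rpl35 and Rpl35rt differ by 1 base in 369, and Rpl29 and Rpl27rt are 97.9% identical over 480 bases, so the split of reads within these pairs is uncertain. With copies summed into their gene, 1 of 84 tested genes was called for adhesion, as lower (1.19%, against 5.04% of all tested genes lower), and the median fold change was -0.038.

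Litter changed some rows of the family much more than adhesion did. In the edgeR test of litter, 11 of 85 genes passed (12.9%, against 17.9% of all tested genes). Rpl26, a large subunit protein known in human cells to bind p53 mRNA, had 917, 515 and 466 CPM in the high adhesion libraries of litters 1, 2 and 3, and 978, 506 and 466 CPM in the low adhesion libraries (edgeR adjusted p for litter = 2.95e-15). Litter 1 stood well above litters 2 and 3 on both substrates, while high and low adhesion lay close within each litter. Among the others were Rpl21, Rps4l, Rpl35a, Rplp0, Rps3a1, Rps2, Rpl31, Rplp1 and Rpl7l1. A coefficient of variation over all libraries of at least 10% was found in 6 genes, Rpl26, Rps4l, Rpl21, Rpl35a, Rplp0 and Rps3a1, while the median of the 85 was 3.61%.

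The copy of Rpl26 with most counts varied between litters the opposite way. Gm15772, 99.5% identical to Rpl26, had 673, 909 and 1011 CPM at high adhesion and 703, 902 and 1027 CPM at low adhesion, lowest in litter 1. Summed over Rpl26 and its 6 copies, the value was 1819, 1701 and 1794 CPM at high adhesion and 1923, 1686 and 1806 CPM at low adhesion, and litter no longer passed (edgeR adjusted p = 0.0534). For Rps3a1, a small subunit protein, the values were 1349, 1736 and 1455 CPM at high adhesion and 1404, 1701 and 1524 CPM at low adhesion, highest in litter 2. Its copy Rps3a3 had 440, 13.0 and 333 CPM at high adhesion and 471, 11.9 and 336 CPM at low adhesion, so that litter 2 nearly lacked it. The sum over Rps3a1 and 6 copies ran from 2401 to 2424 CPM at high and from 2347 to 2503 CPM at low adhesion (edgeR adjusted p for litter = 0.599).

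**Figure D5:**
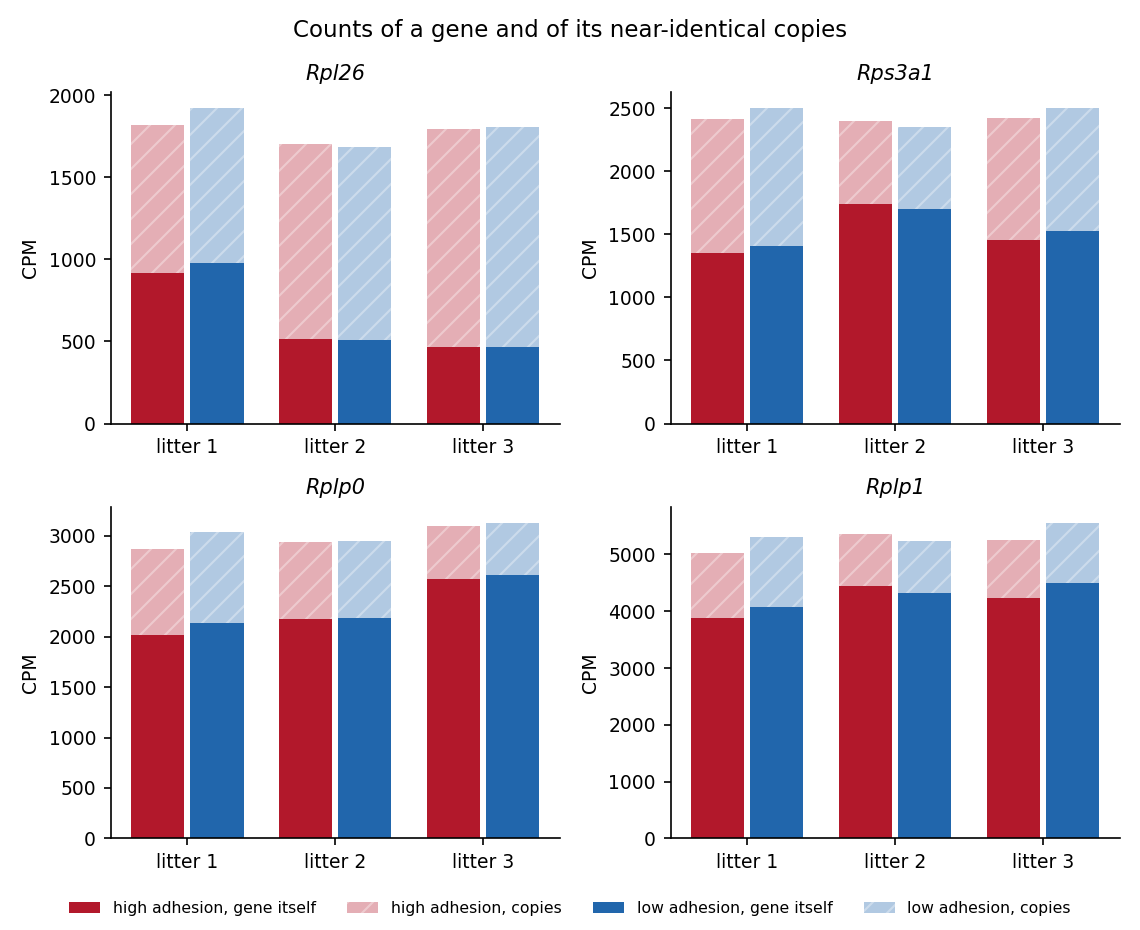
CPM (vertical axis, from 0) of Rpl26, Rps3a1, Rplp0 and Rplp1 in each litter, with high adhesion left of low adhesion, as solid bars for the gene itself and hatched bars stacked on top for its copies. The solid parts differ between litters, from 466 to 978 CPM for Rpl26, while gene and copies together run from 1686 to 1923 CPM.

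How alike these sequences are is shown by stretches of the coding sequence, numbered from the start codon of the ribosomal protein gene, in which capitals mark the bases that differ between gene and copy. Each is the 60-base stretch with the most differences, from GENCODE M21 transcripts.
Rpl26, coding bases 118 to 177: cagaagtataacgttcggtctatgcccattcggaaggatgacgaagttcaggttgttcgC
Gm15772: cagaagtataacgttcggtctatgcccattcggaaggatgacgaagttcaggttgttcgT
Rps3a1, coding bases 201 to 260: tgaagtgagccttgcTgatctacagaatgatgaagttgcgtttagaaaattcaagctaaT
Rps3a3: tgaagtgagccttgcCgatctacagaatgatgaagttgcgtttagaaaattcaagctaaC
Rplp1, coding bases 199 to 258: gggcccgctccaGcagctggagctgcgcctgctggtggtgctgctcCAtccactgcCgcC
Gm11942: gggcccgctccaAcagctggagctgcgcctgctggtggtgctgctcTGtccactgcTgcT
Over the whole alignment Rpl26 and Gm15772 differed at 2 of 435 bases, Rps3a1 and Rps3a3 at 8 of 791, and Rplp1 and Gm11942 at 9 of 342.

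Rplp0 and Rplp1 behaved like Rpl26 in this respect. Rplp0 had 2019.6, 2171 and 2574 CPM at high adhesion and 2137, 2179 and 2607 CPM at low adhesion, while its 3 copies summed to 851, 767 and 520.5 CPM at high adhesion and 894, 763 and 521 CPM at low adhesion. The sum did not pass for litter (edgeR adjusted p = 0.282), and neither did that of Rplp1 and its copies (edgeR adjusted p = 0.527). The remaining 7 genes passed for litter with copies summed as well (7 of 84, against 17.8% of all tested genes). Rpl21 was lowest in litter 1, with 443, 663 and 670.1 CPM at high adhesion and 483, 680 and 701 CPM at low adhesion, and its 57 copies were lowest there too, with 58.0, 125 and 129 CPM at high adhesion and 60.1, 128 and 134 CPM at low adhesion. Rps4l had 38.7, 48.9 and 22.8 CPM at high adhesion and 35.5, 49.3 and 24.9 CPM at low adhesion, highest in litter 2, and no copy was searched for it. Rpl35a was lowest in litter 3 on both substrates, with 475, 439 and 328 CPM at high adhesion and 514, 425 and 350.2 CPM at low adhesion. The log2 fold changes of these 11 genes for adhesion lay between -0.07 and 0.02. The cause of the differences between litters was not tested.

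Other genes of ribosome production and translation gave few calls. Of 311 tested genes in 10 lists, 13 rose and 4 fell (5.47%, against 9.55% of all tested genes), with a median log2 fold change of 0.02. DESeq2 called 2 of them, Eif4ebp1 and Myc, and without the block 0 passed. Rack1 had 2341, 2336 and 2336 CPM at high adhesion, against 2294, 2300.4 and 2313 CPM at low adhesion. It was higher in 3 of 3 litters without overlap and did not pass (log2 fold change 0.02 ± 0.03, edgeR adjusted p = 0.791). Fau averaged 1002 ± 36.0 CPM at high and 1013 ± 59.4 CPM at low adhesion (SD, n = 3 each, edgeR adjusted p = 0.879). Of 21 other known TOP mRNAs 1 rose, Vim, which encodes vimentin (1.08-fold, edgeR adjusted p = 0.0343), and Vim also stands in the stromal marker list.

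Among regulators upstream of the family, 2 of 50 rose and 0 fell. This was 4.00%, against 4.71% of all tested genes called higher and 9.55% called in either direction. Eif4ebp1, which encodes a translation repressor that mTORC1 inactivates, had 211, 163 and 201 CPM at high adhesion, against 178, 145 and 155 CPM at low adhesion (log2 fold change 0.26 ± 0.05, edgeR adjusted p = 0.000247). Myc, a transcription factor known to drive ribosome production, had 368, 294 and 348 CPM at high adhesion, against 327, 255 and 287 CPM at low adhesion (1.16-fold, edgeR adjusted p = 0.000589). Both were higher at high adhesion in 3 of 3 litters, with groups that overlapped across litters. Of 20 genes of RNA polymerase I and its factors 1 rose (Taf1d, 1.11-fold, 5.00% called), and of 70 ribosome biogenesis factors 3 rose and 2 fell (7.14% called). The 3 were Noc2l (1.14-fold), Nop16 (1.14-fold) and Nob1 (1.10-fold), and the 2 were Mphosph10 and Mdn1, which fell by 0.22 and 0.24 on the log2 scale. Of 14 host genes of small nucleolar RNAs and other TOP noncoding RNAs, 3 rose and 0 fell. This was 21.4%, against 9.55% of all tested genes called. The 3 were Snhg16, Snhg1 and Gas5, with log2 fold changes of 0.29, 0.18 and 0.15. None of them passed with DESeq2 (adjusted p = 0.277, 0.0978 and 0.111). Fold changes were above 0 in 13 of the 14 and below 0 in 1, while 50.4% of all tested genes were below 0. The 14 share the same 6 libraries, so this count carries no test.

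Factors that act on the finished ribosome were next. Called were 11.1% of elongation factor genes, 2.44% of initiation factor genes and 9.52% of stress and quality control genes. For mitochondrial ribosomal protein genes it was 1.28%, and for all tested genes 9.55%. Of 9 elongation factor genes 1 rose, Eef2k, the kinase that inhibits elongation factor 2, with 10.1, 11.8 and 11.3 CPM at high adhesion and 6.95, 8.59 and 9.09 CPM at low adhesion (log2 fold change 0.43 ± 0.11, edgeR adjusted p = 0.00955). Its high adhesion libraries lay above all low adhesion libraries. Of 41 initiation factor genes 1 rose, the helicase gene Eif4a2 (1.16-fold, edgeR adjusted p = 0.00295). Of 21 genes of ribosome stress and quality control, Zfp622 rose 1.14-fold and Ascc3 fell by 0.25 on the log2 scale. Of 78 mitochondrial ribosomal protein genes 1 fell, Mrpl33, to 21.1 ± 1.09 CPM at high adhesion, against 25.6 ± 0.521 CPM at low adhesion (SD, n = 3 each, edgeR adjusted p = 0.0143).

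The labelled cell type and possible other cells were checked in the same libraries. Pdgfra, whose product the cells were sorted on, had 26.2, 17.2 and 19.8 CPM at high adhesion and 33.8, 26.6 and 32.0 CPM at low adhesion (edgeR adjusted p = 1.59e-05), and Foxd1, of stromal progenitors, had 156, 179 and 176 CPM at high adhesion and 183, 215 and 217 CPM at low adhesion. Of 12 stromal markers 8 fell and 2 rose, with summed levels from 5534 to 6469 CPM at high and from 5688 to 6499 CPM at low adhesion. Summed leukocyte markers ran from 23.8 to 59.7 CPM at high and from 32.9 to 66.7 CPM at low adhesion (0 of 8 called). Erythroid markers ran from 164 to 331 CPM at high and from 201 to 318 CPM at low adhesion (0 of 4), and endothelial markers from 36.1 to 45.3 CPM at high and from 41.6 to 52.5 CPM at low adhesion (1 of 5 fell). Nephron progenitor markers (2 of 6 rose, 1 of them Osr1, which is also 1 of the 2 stromal markers that rose) ran from 68.4 to 92.1 CPM at high and from 55.8 to 76.7 CPM at low adhesion, and epithelial markers (1 of 7 rose) from 58.7 to 69.9 CPM at high and from 46.9 to 62.7 CPM at low adhesion. The part of these cells in the values of the ribosomal protein genes was not tested.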

How the data were processed

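For 6 libraries the authors deposited estimated counts, some of them fractional, and CPM of 78409 genes in 1 table. Per the submitters' processing notes they used fastp 0.24.0, STAR 2.7.11 and featureCounts of Subread 2.1.1 with build GRCm39. Of the annotation, the strand setting and the handling of reads with several matches, nothing is stated in the sources used here. The deposited CPM differed from CPM computed from the counts by at most 5.1e-11. Counts were rounded and analysed with edgeR 4.0.16 (R 4.3.3, filterByExpr, TMM, robust quasi-likelihood fit, litter as a block), with Benjamini-Hochberg adjustment over 14834 genes, two-sided, at 0.05. Alternatives used DESeq2 1.42.0 and limma-voom (limma 3.58.1). The edgeR test of adhesion with the litter block was tried on simulated counts, with changes larger than those of this family. DESeq2, limma-voom and the test of litter were not. The series' text states litter-matched samples, and same-litter libraries deviated together (r = 0.60, 0.61 and 0.39 across genes). The model leaves 2 residual degrees of freedom per gene. Copies were found with BLAST 2.17.0 against GENCODE M21 (GRCm38). No coordinates were converted. Fractional and shared reads make values of near-identical rows uncertain. Standard errors were derived from edgeR's output, as the absolute log2 fold change over the square root of its F statistic. Intervals were built from them with t quantiles at edgeR's total degrees of freedom, so both are approximate. The intervals cover the spread between these libraries only.

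Values of a few single genes are left out. The genes and lists were chosen with earlier results of these data known. Named were called genes, up to 20, the 5 of most counts, the 3 largest and 3 smallest fold changes at 5 CPM or more, paralogues, genes with known further roles and, per other list, up to 4 called genes or else 2 of most counts. Genes named for litter differences, copies, start sequences or calls under an alternative, and Mdn1, were named after their values were seen.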

Additional observations from a re-analysis of the deposited data

How the results depend on the processing

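The count of ribosomal protein genes called lower was 0 with RLE scaling, TMM without the family, no filter, unrounded counts, DESeq2 and no replicate block, 3 with limma-voom and 1 with copies summed. Leaving out 1 litter gave 0 to 9. None was called higher in any setting. Over all genes 406 passed with DESeq2, 36 with no replicate block and 908 to 1553 with 1 litter left out, against 1416, with a biological coefficient of variation of 10.7% where no block was fitted, against 4.06%. Genes of the other translation lists gave 13 higher and 4 lower calls, 2 and 0 with DESeq2, 0 and 0 with no replicate block, and 5 to 19 and 1 to 11 with 1 litter left out. Among them, Taf1d, Nob1, Zfp622, Ascc3 and Mrpl33 kept the call without litter 2 and lost it without litter 1 or litter 3. Vim lost it with any 1 litter left out. Eef2k, Eif4a2, Noc2l, Nop16, Mphosph10 and Snhg16 lost it only without litter 1, and Myc, Gas5 and Snhg1 only without litter 3. Eif4ebp1 kept it whichever litter was left out. For litter, 7 ribosomal protein genes passed with no filter and 7 with copies summed, against 11. The median fold change ran from -0.053 to -0.016 and the difference in share from -0.387 to -0.197 percentage points with 1 litter left out. Of 549 values of named genes under 11 settings, 481 kept their side of the threshold, 59 lost the call and 9 gained one. In 0 did a call change direction. Signs of small uncalled changes did flip, as for Rpl29, at 0.06 in the main fit and -0.02 without litter 3 (log2 fold change). The causes were not tested. Copies summed was chosen after seeing the data. With 3 pairs and 2 residual degrees of freedom per gene, differences of a few percent in 1 gene are at the limit of what was detectable.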
